A study of Mus musculus with 10 samples.

Results

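The genes described here are 36 genes of amino acid stress, namely Atf4 and known targets of the transcription factor it encodes, in a mouse model of acute myeloid leukaemia with the MLL-AF9 oncogene. A gene was represented by the brightest probe set that carried its symbol alone, which gave a value for 35 of the 36 members among 19938 genes measured. No probe set had the symbol of Pycr1, a proline synthesis enzyme, alone, and it was not analysed here. Slc38a1 had 2 such probe sets and each other measured member had 1. The arrays came from c-Kit-positive cells of 5 independent primary leukaemias, all carrying Cre-ER, a Cre recombinase that 4-hydroxytamoxifen (4-OHT) activates. Lines 10949, 10950 and 10986 (fl) also carried a floxed allele of Zfx, a zinc finger transcription factor gene, and lines 10977 and 10980 (wt) carried the wild-type allele. Each line was grown for 72 h in 10 nM 4-OHT or in ethanol vehicle and then sorted, in medium that held serum, SCF (20 ng/mL), IL-3 (10 ng/mL) and IL-6 in all groups, so that the fl lines have 3 arrays of each treatment and the wt lines 2 of each. The wt pairs carry the effect of 4-OHT and active Cre without a floxed allele. Each line is 1 leukaemia, so genotype and leukaemia cannot be told apart in levels compared between lines.

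When amino acids run short, uncharged tRNAs switch on the kinase GCN2, which phosphorylates the translation factor eIF2. General translation then slows, while the mRNA of Atf4 is translated more, so much of the control of ATF4 lies in protein synthesis and does not show in its mRNA. ATF4 pairs with C/EBP-family proteins at a composite DNA element and switches on genes for amino acid synthesis, amino acid uptake, one-carbon metabolism and tRNA charging, together with the stress factors Ddit3, Trib3 and Chac1. Leukaemic progenitors take up and use glutamine, serine and cystine heavily, which makes these genes a readout of amino acid supply and of stress signalling in such cells.

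The promoters of 5 members are shown because they hold a match to the core of that composite element, TGATGNAA, searched on both strands, where N is any base. They are the 4 members among those described array by array below that have a match, and Asns, the asparagine synthetase gene. The sequences are RefSeq's (assembly GRCm38.p6), written 5' to 3' on the gene's strand up to the base before the annotated start, with the matches in capitals. A match on the other strand reads TTGCATCA or TTACATCA here.
Slc7a11 promoter, chr3:50443614-50443709, minus strand: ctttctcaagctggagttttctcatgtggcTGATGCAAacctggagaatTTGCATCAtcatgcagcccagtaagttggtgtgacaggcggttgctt
Chac1 promoter, chr2:119351019-119351241, plus strand: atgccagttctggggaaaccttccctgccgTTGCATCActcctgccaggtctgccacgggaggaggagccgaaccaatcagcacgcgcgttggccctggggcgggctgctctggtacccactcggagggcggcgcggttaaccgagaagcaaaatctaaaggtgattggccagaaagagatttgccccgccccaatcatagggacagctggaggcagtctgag
Nupr1 promoter, chr7:126625471-126625610, minus strand: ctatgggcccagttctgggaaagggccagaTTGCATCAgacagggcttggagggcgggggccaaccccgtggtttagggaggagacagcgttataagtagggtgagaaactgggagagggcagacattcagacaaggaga
Pck2 promoter, chr14:55540133-55540265, plus strand: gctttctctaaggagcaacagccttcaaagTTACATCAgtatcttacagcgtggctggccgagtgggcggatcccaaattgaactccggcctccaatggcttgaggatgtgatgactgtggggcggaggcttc
Asns promoter, chr6:7693210-7693262, minus strand: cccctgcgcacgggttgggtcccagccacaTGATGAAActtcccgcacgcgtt

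Slc7a11 holds 2 matches, from -66 to -59 and from -47 to -40 counted from the start. Chac1 has its match at -193 to -186, Nupr1 at -110 to -103, Pck2 at -103 to -96 and Asns at -23 to -16. RefSeq's table gave promoter windows of 300 bases, 250 before and 50 after the start, for 30 of the 36 members. A match occurred in 9 of the members' 36 windows (25%), against 3.97% of all 32851 windows of that length, and in 9 of 30 member genes against 4.51% of 27025 genes. The other 4 member genes with a match were Trib3, Pycr1, Slc1a4 and Vldlr. The members were listed as known targets of ATF4, so their share of matches is not independent of how they were chosen. A match describes letters in a window and was not tested as a binding site. The members with a match did not share a direction: with 4-OHT in the fl lines, Slc7a11 and Asns had changes above 0 (1.43 and 0.18), while Nupr1, Trib3, Chac1, Pck2, Slc1a4 and Vldlr lay between -0.80 and -0.09. These and all later changes are differences of log2 intensity, and their tests follow.

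Array medians lay between 144.7 and 158.2 intensity units. The vehicle array of line 10986 stood apart, with a mean correlation across genes of 0.968 with the other arrays, against 0.982 to 0.988. Its log2 levels also had the narrowest interquartile range (2.67, against 2.80 to 3.05). It was the highest array for 32.3% of all genes and the lowest for 20.8%, and every change of line 10986 rests on it. Line 10980 ran against each other line: its 4-OHT minus vehicle changes correlated across 15662 genes at -0.39 to -0.16 with those of each other line, and the 6 pairs among the other 4 lines ranged from -0.32 (10986 with 10977) to 0.55 (10949 with 10950). The labels of line 10980 were kept as given and whether they hold was not tested. Were its vehicle and 4-OHT arrays exchanged, every change printed for that line would turn sign, so the members' medians that include it are also given without it, apart from the vehicle comparison, where leaving out 1 line at a time gave -0.20 to -0.04. Genes are not independent replicates, and many results below are given by line for these reasons. The Zfx probe set, which may lie outside the deleted part and then checks nothing, had levels (log2 of the deposited intensity) of 9.24 to 10.09 on fl vehicle and 9.98 to 10.07 on fl 4-OHT arrays (change 0.37, standard error, SE, 0.16, limma adjusted p = 0.407). Kit, the sorted marker, lay between 8.35 and 9.20 on 8 arrays and at 9.79 and 9.94 on those of line 10980.

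No member passed the threshold with 4-OHT in the fl lines (limma, adjusted p under 0.05 over 15662 genes). Among all genes tested 0.0511% were called higher and 0.102% lower. At an unadjusted p under 0.05, 1 member was higher (all genes 6.68%) and 8 were lower (all genes 5.65%). The lower 8 were Atf4, Atf5, Ddit3, Ppp1r15a, Chac1, Shmt2, Pck2 and Slc1a5, and the higher one was Slc7a11. The members' median change was -0.17, with 23 of 35 below 0, and the median of all genes tested was 0.00. The smallest adjusted p was 0.124, for Slc7a11. By line, 9 of 35 members were higher with 4-OHT in line 10949 (median -0.23), 21 in line 10950 (median 0.07) and 10 in line 10986 (median -0.18). The shares of all genes that were higher in these lines were 47.4%, 57.5% and 45.5%. In line 10986 the members' count became 14 with arrays centred on their medians and 7 after quantile normalization.

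**Figure D1:**
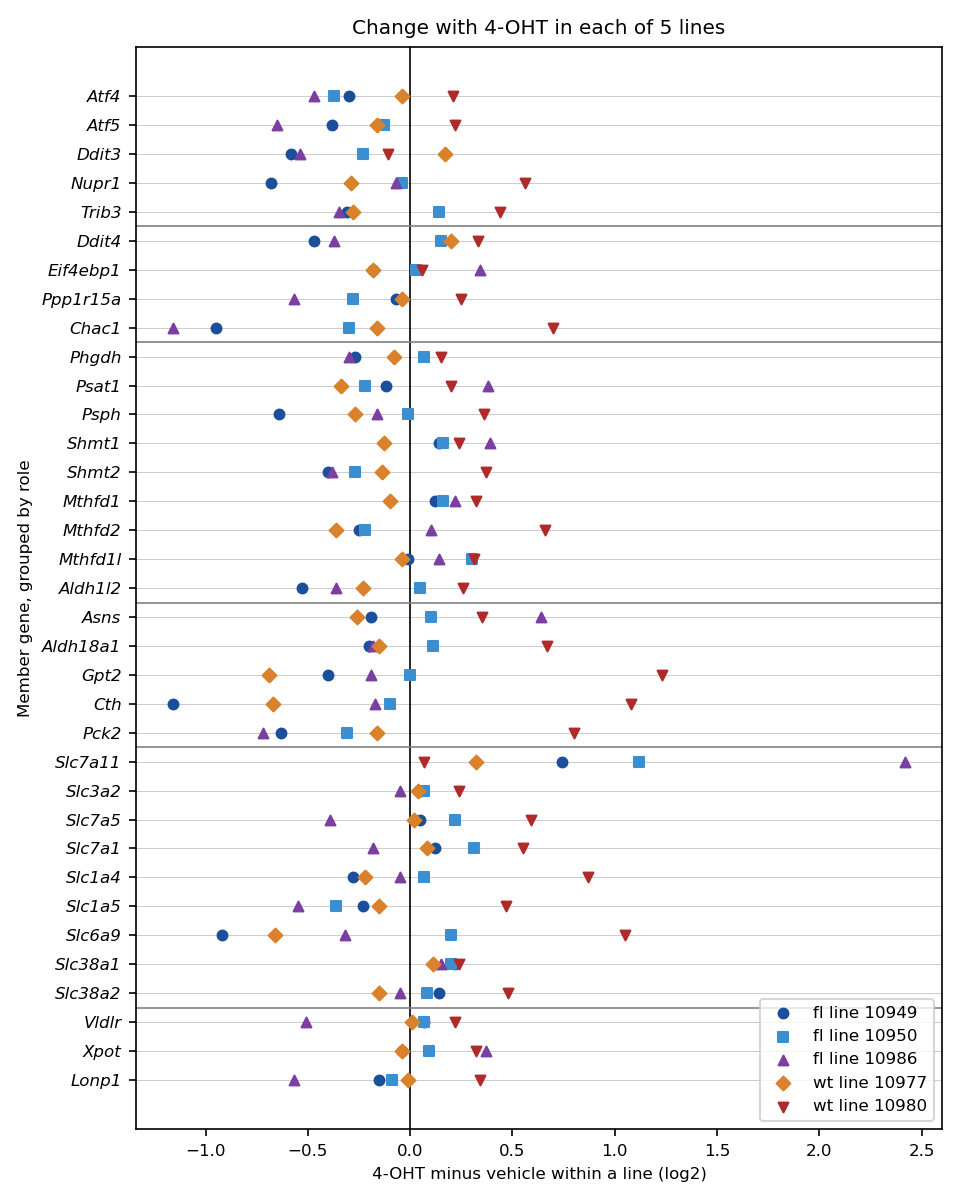
Change in log2 level from vehicle to 4-OHT for the 35 measured members (rows, grouped by role), with 1 point per line (circles, squares and upward triangles for the fl lines, diamonds and downward triangles for the wt lines). Slc7a11 reaches 2.42 in fl line 10986, and the points of wt line 10980 lie above 0 for 34 of 35 members.

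The wt lines, with line 10980 taken as labelled, lay on opposite sides of 0. In line 10977, 8 of 35 members were higher with 4-OHT (median -0.15, all genes 50.8% higher), and in line 10980, 34 of 35 were (median 0.34, all genes 49.1% higher), Ddit3 being the exception. These last counts were 34 of 35 also after median centring and after quantile normalization. The mean wt change of the members had a median of 0.14, which averages both lines: it was -0.15 from line 10977 alone and 0.34 from line 10980 alone. Both wt lines were higher with 4-OHT for 7 members (all genes 24.3%) and both lower for none (all genes 24.5%). Wt 4-OHT levels lay above both wt vehicle levels for 6 members (all genes 14.3%) and below for none (all genes 12.4%). No member passed in the wt lines, where limma called 0% of genes either way and the smallest adjusted p of the members was 1. At an unadjusted p under 0.05 no member was higher (all genes 0.0830%) or lower (all genes 0.0638%). The 4-OHT array of line 10980 carried the highest level of the 10 arrays for 23 of 35 members, and was the highest for 9.02% of all genes. The fl 4-OHT array of line 10986 carried the lowest for 11 members, and for 6.44% of all genes.

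The test of the difference between fl and wt changes also called no member, with 0% of all genes called either way and a smallest adjusted p of 0.739 for Chac1 (limma). At an unadjusted p under 0.05, 6 members had a lower change in the fl lines (all genes 2.78%) and Slc7a11 a higher one (all genes 3.05%). The members' median difference was -0.32, against -0.01 for all genes tested. It became 0.02 without line 10980 and -0.57 without line 10977. All 3 fl changes lay below both wt changes for 9 members (Atf4, Ddit3, Ddit4, Ppp1r15a, Chac1, Shmt2, Pck2, Slc1a5 and Lonp1), as for 11.4% of all genes tested. They lay above both for Slc7a11, as for 12.3% of genes.

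**Figure D2:**
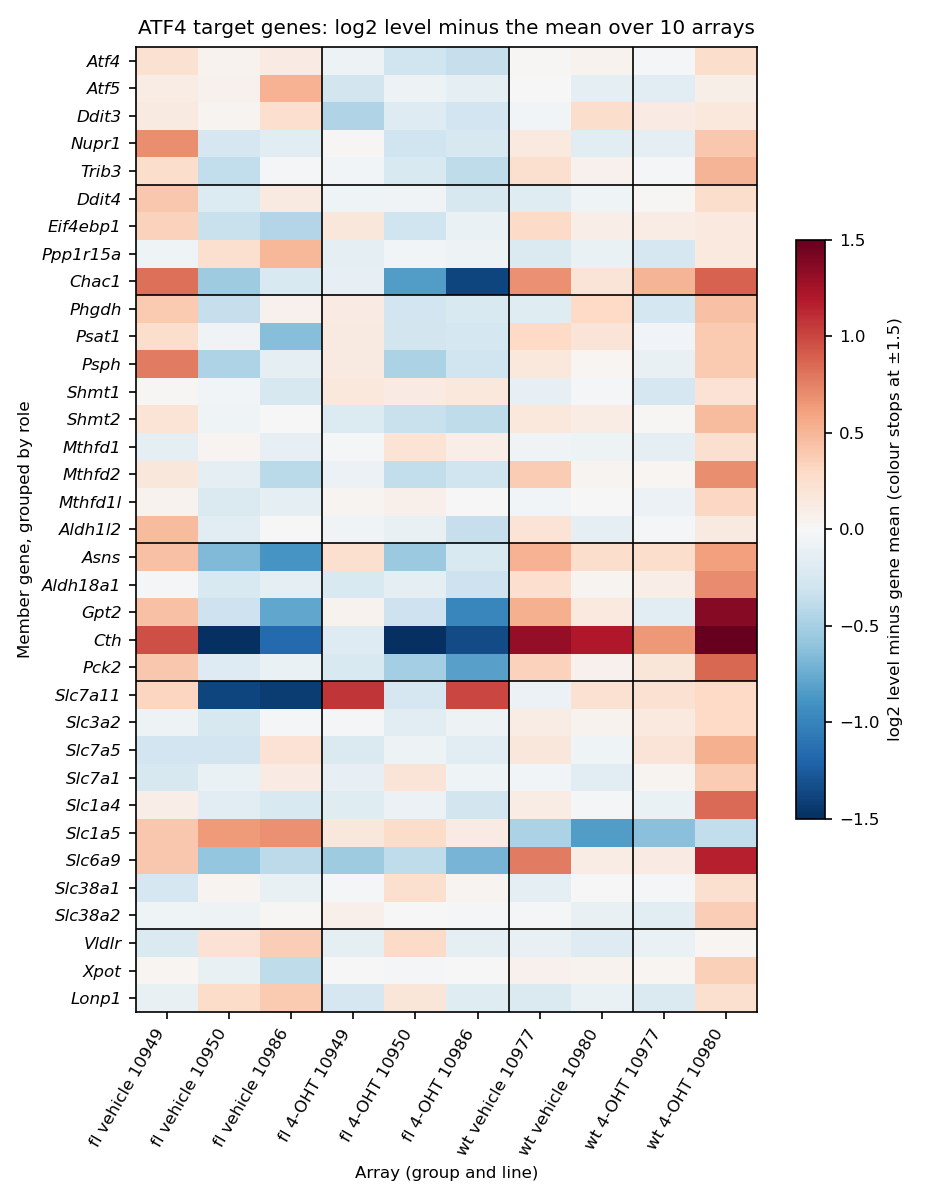
Log2 level of each measured member on each array minus the gene's mean over the 10 arrays (rows are genes grouped by role, columns are arrays grouped by genotype and treatment, red is above and blue below the gene's mean, and colours stop at 1.5 either way). The 4-OHT array of wt line 10980 is red for most genes, and Cth and Slc7a11 are blue on the vehicle arrays of fl lines 10950 and 10986.

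Atf4 itself, the central transcription factor, had log2 levels of 10.62, 10.45 and 10.52 on the vehicle arrays of fl lines 10949, 10950 and 10986, and 10.32, 10.09 and 10.05 on their 4-OHT arrays. In wt lines 10977 and 10980 it stood at 10.41 and 10.44 with vehicle and 10.37 and 10.65 with 4-OHT. The fl 4-OHT levels were thus the 3 lowest of the 10 arrays and did not overlap any other group. The fl change of -0.38, a mean over 3 line pairs (SE 0.10 from the fit to all 10 arrays, limma adjusted p = 0.194), did not pass. Its difference from the wt change was -0.46 (adjusted p = 0.768). Without overlap, fl 4-OHT levels lay below fl vehicle levels for 6 members (all genes 7.27%), which were Atf4, Atf5, Ddit3, Shmt2, Pck2 and Slc1a5. They lay above for Shmt1 alone (all genes 4.55%).

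Ddit3 (CHOP), a stress factor that acts with ATF4 and promotes cell death when stress lasts, stood at 8.39, 8.29 and 8.51 with vehicle and 7.80, 8.06 and 7.97 with 4-OHT in fl lines 10949, 10950 and 10986. The wt levels were 8.21 and 8.52 with vehicle and 8.38 and 8.41 with 4-OHT in lines 10977 and 10980. As for Atf4, the fl 4-OHT levels were the 3 lowest of all (change -0.45, SE 0.12, limma adjusted p = 0.181). The difference from the wt lines was -0.49 (adjusted p = 0.803). Ddit3 was also the only member that was higher with 4-OHT in line 10977 (0.17) and lower in line 10980 (-0.11).

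Atf5, a related bZIP factor of mitochondrial stress, stood at 7.98, 7.94 and 8.39 with vehicle and 7.60, 7.80 and 7.74 with 4-OHT in the fl lines. In the wt lines it was at 7.87 and 7.74 with vehicle and 7.70 and 7.96 with 4-OHT. The fl groups did not overlap each other but the wt levels spanned the gap (change -0.39, SE 0.13, limma adjusted p = 0.304). Nupr1, a small chromatin-associated stress protein, was at 8.98, 8.03 and 8.11 with vehicle and 8.30, 7.99 and 8.04 with 4-OHT in the fl lines, and at 8.43 and 8.12, then 8.14 and 8.69, in the wt lines. Its fl change of -0.26 (SE 0.20, adjusted p = 0.705) came mostly from line 10949 (-0.68), with -0.04 and -0.07 in lines 10950 and 10986. Trib3, a pseudokinase that dampens ATF4 signalling, had fl changes of -0.31, 0.14 and -0.35. None of the 5 regulators passed, all 5 mean fl changes lay between -0.45 and -0.17, and all 5 mean wt changes lay between 0.03 and 0.14. These wt means average lines of unlike sign. In line 10977 Atf4, Atf5, Nupr1 and Trib3 were lower with 4-OHT (-0.04, -0.16, -0.29 and -0.28) and Ddit3 was higher (0.17).

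**Figure D3:**
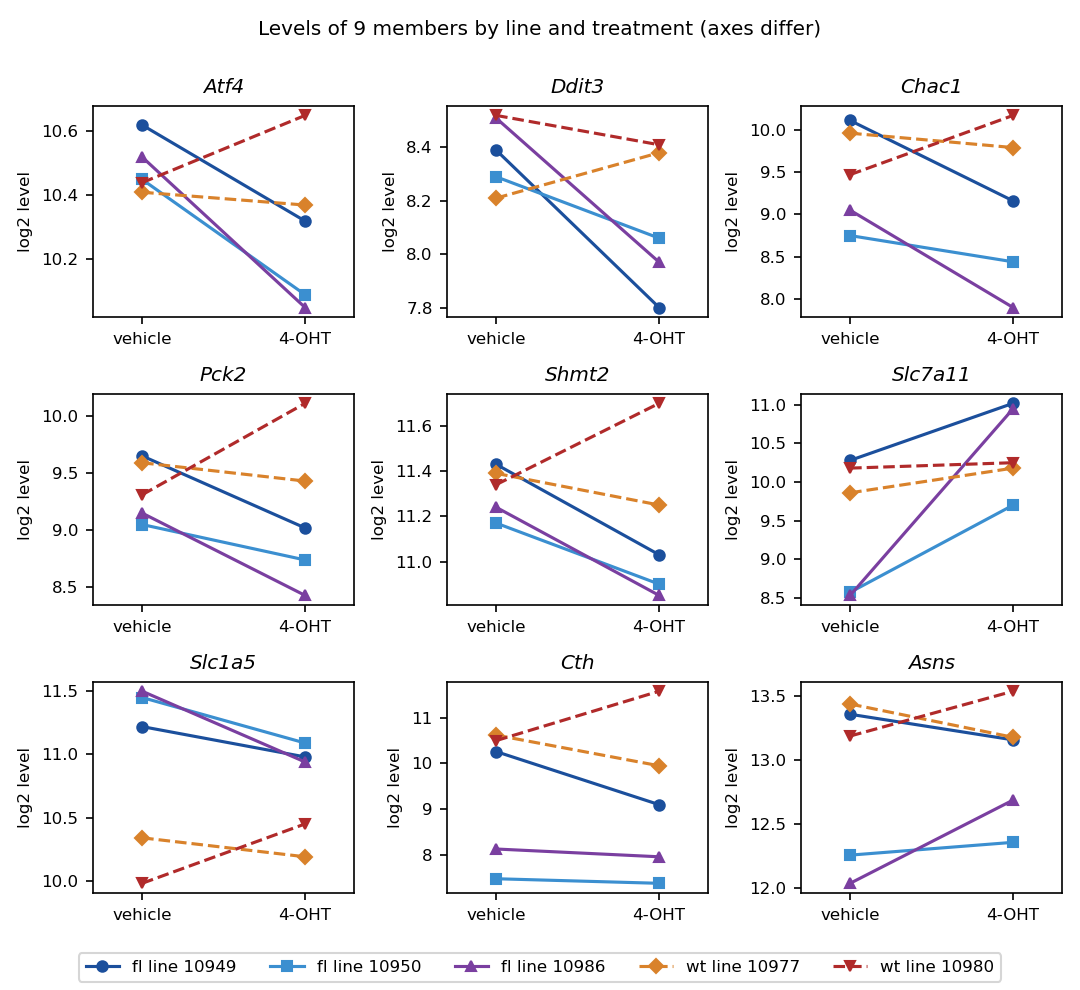
Log2 level with vehicle and with 4-OHT for 9 members, 1 line segment per leukaemia line (solid for fl, dashed for wt, axes differ between panels). In the panels of Atf4, Chac1, Pck2 and Shmt2 all 3 fl segments slope down, and only that of wt line 10980 slopes up. The segment of wt line 10977 also slopes down in these panels (-0.04, -0.16, -0.16 and -0.14). In the Slc1a5 panel all fl levels lie above all wt levels.

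Chac1, which degrades glutathione and is a sensitive ATF4 target, had the most negative fl change of the members. Its levels were 10.11, 8.75 and 9.05 with vehicle and 9.16, 8.44 and 7.90 with 4-OHT in fl lines 10949, 10950 and 10986, and 9.96 and 9.47, then 9.79 and 10.17, in wt lines 10977 and 10980. All 3 fl lines were lower with 4-OHT and all fl 4-OHT levels lay below all wt levels, but the fl groups overlapped because line 10949 was high throughout. The fl change was -0.80 (SE 0.22, limma adjusted p = 0.197), and the difference from the wt lines was -1.07 (SE 0.34, adjusted p = 0.739). Without line 10980 that difference was -0.64.

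Ppp1r15a (GADD34), the phosphatase subunit that reverses eIF2 phosphorylation, stood at 7.88, 8.18 and 8.44 with vehicle and 7.81, 7.90 and 7.86 with 4-OHT in the fl lines, and at 7.73 and 7.84, then 7.69 and 8.09, in the wt lines. The fl 4-OHT levels lay close together while the vehicle levels spread (change -0.31, SE 0.13, limma adjusted p = 0.401). Ddit4, an inhibitor of mTORC1, had fl changes of -0.47, 0.15 and -0.37 and was higher with 4-OHT in both wt lines. Eif4ebp1, which blocks cap-dependent translation, had fl changes of -0.18, 0.03 and 0.34. None of these 4 feedback and growth inhibitor genes passed, and 3 of the 4 mean fl changes were below 0.

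Of the 9 enzymes of serine, glycine and one-carbon metabolism, none passed, with mean fl changes from -0.35 to 0.23 (median -0.12). Shmt2, the mitochondrial serine hydroxymethyltransferase, stood at 11.43, 11.17 and 11.24 with vehicle and 11.03, 10.90 and 10.85 with 4-OHT in the fl lines. In the wt lines it was at 11.39 and 11.34 with vehicle and 11.25 and 11.70 with 4-OHT. The 3 fl 4-OHT levels were the lowest of the 10 arrays (change -0.35, SE 0.12, limma adjusted p = 0.300). Psph, which carries out the last step of serine synthesis, was at 10.14, 8.90 and 9.23 with vehicle and 9.50, 8.89 and 9.07 with 4-OHT in the fl lines, and at 9.52 and 9.40, then 9.25 and 9.76, in the wt lines. Its fl change of -0.27 (SE 0.17, adjusted p = 0.615) was -0.64 in line 10949 and -0.01 in line 10950. The mitochondrial folate enzyme gene Aldh1l2 had fl changes of -0.53, 0.05 and -0.36 (mean -0.28, SE 0.15).

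Partner enzymes of the cytosol and the mitochondrion are given side by side, as a description with no test. Shmt1, the cytosolic partner of Shmt2, was higher with 4-OHT in all 3 fl lines (0.14, 0.16 and 0.39, mean 0.23, SE 0.11, limma adjusted p = 0.495), and so was the cytosolic folate enzyme gene Mthfd1 (0.12, 0.16 and 0.22). The mitochondrial folate enzyme genes were mixed, with Mthfd2 at -0.25, -0.22 and 0.10 and Mthfd1l at -0.01, 0.30 and 0.14. Phgdh and Psat1, the first enzymes of serine synthesis, had mean fl changes of -0.17 and 0.01, and Psat1 became -0.03 after quantile normalization. Shmt1, Mthfd1, Slc38a1 and Slc7a11 were the 4 members higher in all 3 fl lines (all genes 14.6%), and 12 members were lower in all 3 (all genes 14.5%). The genes of this paragraph other than Slc7a11, and Asns, Gpt2, Slc6a9 and Slc1a4 below, were singled out after their values were seen.

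Pck2, the mitochondrial phosphoenolpyruvate carboxykinase, stood at 9.65, 9.05 and 9.15 with vehicle and 9.02, 8.74 and 8.43 with 4-OHT in fl lines 10949, 10950 and 10986. The wt levels were 9.59 and 9.31 with vehicle and 9.43 and 10.11 with 4-OHT. All 3 fl 4-OHT levels lay below every other array (change -0.55, SE 0.19, limma adjusted p = 0.295). The difference between fl and wt changes was -0.87 (adjusted p = 0.755), with 0.80 in wt line 10980 and -0.16 in line 10977.

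Cth, cystathionine gamma-lyase, which makes cysteine from cystathionine, varied more between arrays than any other measured member, over 4.19 log2 units. It stood at 10.26, 7.48 and 8.13 with vehicle and 9.10, 7.38 and 7.96 with 4-OHT in fl lines 10949, 10950 and 10986, and at 10.62 and 10.50, then 9.95 and 11.58, in wt lines 10977 and 10980. Lines 10950 and 10986 were low under both treatments, while line 10949 with vehicle lay near the wt lines. The fl change of -0.48 (SE 0.34, limma adjusted p = 0.681) was -1.16 in line 10949 and -0.10 and -0.17 in the others, and it was -0.14 without line 10949. Asns, likewise lower in lines 10950 and 10986, stood at 13.36, 12.26 and 12.04 with vehicle and 13.16, 12.36 and 12.69 with 4-OHT in the fl lines, and at 13.44 and 13.19, then 13.18 and 13.54, in the wt lines. Its fl change was 0.18 (SE 0.19, adjusted p = 0.837) and was -0.19, 0.10 and 0.64 by line. Gpt2, an alanine aminotransferase, had changes of -0.40, 0.00 and -0.19 in the fl lines, -0.69 in line 10977 and 1.23 in line 10980, the largest change of line 10980 among the members. None of the 5 measured genes of this group passed, and 4 of the 5 mean fl changes were below 0.

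Slc7a11 (xCT), which imports cystine in exchange for glutamate and is also a known target of the antioxidant factor NRF2, had the largest change of all members and ran opposite to Atf4. In fl lines 10949, 10950 and 10986 it stood at 10.28, 8.57 and 8.53 with vehicle and 11.02, 9.70 and 10.95 with 4-OHT, and in wt lines 10977 and 10980 at 9.86 and 10.18, then 10.18 and 10.25. Every fl line was higher with 4-OHT, but the fl groups overlapped, since line 10949 with vehicle (10.28) lay above line 10950 with 4-OHT (9.70). With vehicle, lines 10950 and 10986 lay far below the other 3 lines. The change was 0.74, 1.12 and 2.42 by line, 1.43 on average (SE 0.29, limma adjusted p = 0.124), and 0.32 and 0.07 in the wt lines. The difference of 1.23 between the genotypes did not pass (SE 0.47, adjusted p = 0.803). Without line 10986, whose vehicle array stood apart, Slc7a11 rose by 0.93 and passed (limma adjusted p = 0.0125, range over all alternatives 0.00142 to 0.585).

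Slc1a5 (ASCT2), a glutamine and neutral amino acid carrier, stood higher on every fl array than on any wt array. Its levels were 11.22, 11.45 and 11.50 with vehicle and 10.98, 11.09 and 10.94 with 4-OHT in the fl lines, against 10.34 and 9.98, then 10.19 and 10.45, in wt lines 10977 and 10980. Within the fl lines the 4-OHT levels lay below the vehicle levels. The fl change was -0.38 (SE 0.14, limma adjusted p = 0.338) and the difference from the wt change -0.54 (adjusted p = 0.857). Under vehicle the fl lines were 1.22 above the wt lines (SE 0.15, adjusted p = 0.081) and under 4-OHT 0.68 above (SE 0.15, adjusted p = 0.0905), and neither passed.

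The other transporters showed smaller or mixed fl changes. Slc38a1, a sodium-coupled glutamine carrier, was higher with 4-OHT in every line, by 0.22, 0.20 and 0.15 in the fl lines and 0.11 and 0.24 in the wt lines. Slc3a2, the partner chain of Slc7a11 and Slc7a5, had a mean fl change of 0.02 (SE 0.10) and a mean wt change of 0.14 (SE 0.12). The leucine exchanger Slc7a5 and the cationic amino acid carrier Slc7a1 were lower with 4-OHT in line 10986 (-0.39 and -0.18) and higher in lines 10949 and 10950. The glycine carrier Slc6a9 had fl changes of -0.92, 0.20 and -0.32, with -0.66 and 1.05 in the wt lines, and the alanine and serine carrier Slc1a4 had 0.87 in line 10980. Of the 9 transporters none passed, and the median fl change was 0.02.

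Lonp1, the mitochondrial matrix protease, stood at 8.79, 9.18 and 9.29 with vehicle and 8.65, 9.08 and 8.72 with 4-OHT in the fl lines, and at 8.69 and 8.80, then 8.68 and 9.14, in the wt lines. The fl groups overlapped, and the change of -0.27 (SE 0.13, limma adjusted p = 0.489) was -0.57 in line 10986 and -0.15 and -0.09 in the other fl lines. The tRNA exporter gene Xpot had fl changes of -0.04, 0.09 and 0.37, and the lipoprotein receptor gene Vldlr 0.07, 0.07 and -0.51. None of these 3 passed.

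Between genotypes, no member passed under vehicle, where limma called 0% of all genes higher and 0.0192% lower in the fl lines, or under 4-OHT, where it called 0.185% higher and 0.460% lower. At an unadjusted p under 0.05 under vehicle, Slc1a5 was higher (all genes 3.71%) and Cth lower (all genes 6.12%). Under 4-OHT Slc1a5 was again higher (all genes 3.84%) and 11 members were lower (all genes 6.97%). The members' median difference was -0.08 under vehicle and -0.30 under 4-OHT, against 0.03 and 0.02 for all genes tested. Under 4-OHT it was -0.10 without line 10980 and -0.47 without line 10977. Fl 4-OHT levels lay below both wt 4-OHT levels for 16 members (all genes 14.2%) and above for Slc1a5 alone (all genes 12.6%). Under vehicle, fl levels lay above both wt levels for Atf4, Atf5, Ppp1r15a and Slc1a5 (all genes 18.6%) and below for Aldh18a1, Cth, Slc3a2 and Xpot (all genes 12.1%). The largest differences under 4-OHT were those of Cth (-2.61, SE 0.79, adjusted p = 0.219), Chac1 (-1.48, SE 0.43, adjusted p = 0.194), Slc6a9 (-1.18, SE 0.39) and Pck2 (-1.04, SE 0.26, adjusted p = 0.133). The comparisons within the fl lines and between genotypes share arrays, so their values are not independent.

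Neighbouring parts of the pathway were read from 5 further lists, and none of their genes passed in any of the 5 comparisons (limma). At an unadjusted p under 0.05 in the fl lines, 3 genes of the eIF2 list were higher and 1 lower, with 1 and 1 of the bZIP partners, 4 and 1 of the NRF2 targets, 3 and 1 of the tRNA synthetases and 1 and 1 of the amino acid sensing list, where the shares of all genes were 6.68% higher and 5.65% lower. Among 15 measured genes of eIF2 and its kinases (of 16 listed), the kinase genes differed in sign in the fl lines. Eif2ak4, which encodes the amino acid sensor GCN2, stood at 8.91, 9.16 and 9.02 with vehicle and 8.60, 8.71 and 8.56 with 4-OHT (change -0.41, SE 0.10, limma adjusted p = 0.168). The wt levels were 9.25 and 9.22 with vehicle and 8.99 and 9.19 with 4-OHT in lines 10977 and 10980, so Eif2ak4 was lower with 4-OHT in all 5 lines, and the difference between fl and wt changes was -0.26 (SE 0.16, adjusted p = 0.908). It was singled out after its values were seen. The double-stranded RNA sensor Eif2ak2 had 0.51 (SE 0.17, adjusted p = 0.294) and the haem sensor Eif2ak1 by 0.45 (SE 0.15, adjusted p = 0.296). In line 10986 they had 1.04 and 0.88, the largest of the fl lines.

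Of 8 bZIP partner genes, Cebpb, which encodes a C/EBP partner of ATF4, had the smallest adjusted p of these lists in the fl lines. Its levels were 9.07, 8.87 and 9.25 with vehicle and 8.35, 8.33 and 8.56 with 4-OHT in the fl lines, and 8.64 and 8.47, then 8.57 and 8.63, in the wt lines. The fl vehicle levels were the 3 highest of the 10 arrays (change -0.65, SE 0.10, limma adjusted p = 0.0845), and the difference from the wt lines was -0.70 (adjusted p = 0.677). Nfe2l2, the gene of NRF2, had changes of 0.05, -0.03 and 1.09 (mean 0.37, SE 0.22). The partner that was higher at an unadjusted p under 0.05 was Atf3, named after its values were seen. Its fl changes were 0.44, 0.37 and 0.24 (mean 0.35, SE 0.10, limma adjusted p = 0.201), and its wt changes 0.07 and -0.06. The fl 4-OHT levels of Atf3 lay above all its other levels.

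Of 13 measured NRF2 targets (of 14 listed), 8 were higher with 4-OHT in all 3 fl lines (all genes 14.6%), as Slc7a11 was, 2 were lower in all 3 (all genes 14.5%), and the median fl change was 0.17. The lower ones were Taldo1 and Tkt, enzymes of the pentose phosphate pathway, with changes of -0.22 (SE 0.11, limma adjusted p = 0.501) and -0.37 (SE 0.11, adjusted p = 0.247), named after their values were seen. Hmox1, haem oxygenase, stood at 9.03, 8.59 and 8.98 with vehicle and 10.17, 9.39 and 10.66 with 4-OHT in the fl lines, and at 8.60 and 8.94, then 8.81 and 8.37, in the wt lines. Its fl groups did not overlap (change 1.21, SE 0.21, limma adjusted p = 0.0948), and the difference from the wt lines was 1.39 (adjusted p = 0.677). Nqo1, a quinone reductase, stood at 7.14, 6.53 and 6.27 with vehicle and 7.89, 7.15 and 7.68 with 4-OHT in the fl lines (change 0.93, SE 0.16, adjusted p = 0.0979). The 4-OHT levels of Nqo1 in the fl lines lay above all its other levels.

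Of 15 measured cytosolic aminoacyl-tRNA synthetase genes (of 18 listed), which load amino acids onto tRNAs and include many ATF4 targets, all 15 were higher with 4-OHT in wt line 10980 (median 0.38) and 3 in line 10977 (median -0.12). In fl lines 10949, 10950 and 10986, 7, 11 and 10 were higher. Vars1 and Rars1 had the largest fl changes, -0.50 (SE 0.14, limma adjusted p = 0.201) and 0.48 (SE 0.20, adjusted p = 0.392). By line these were -0.37, -0.29 and -0.83 for Vars1 and 0.10, 0.24 and 1.10 for Rars1. Among 13 genes of amino acid sensing upstream of mTORC1, Mtor had -0.39 (SE 0.11, adjusted p = 0.217) and the lysosomal arginine sensor gene Slc38a9 had 0.38 (SE 0.20, adjusted p = 0.539). By line Mtor had -0.32, -0.36 and -0.50, and Slc38a9 had 0.19, -0.09 and 1.03, the last in line 10986.

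**Figure D4:**
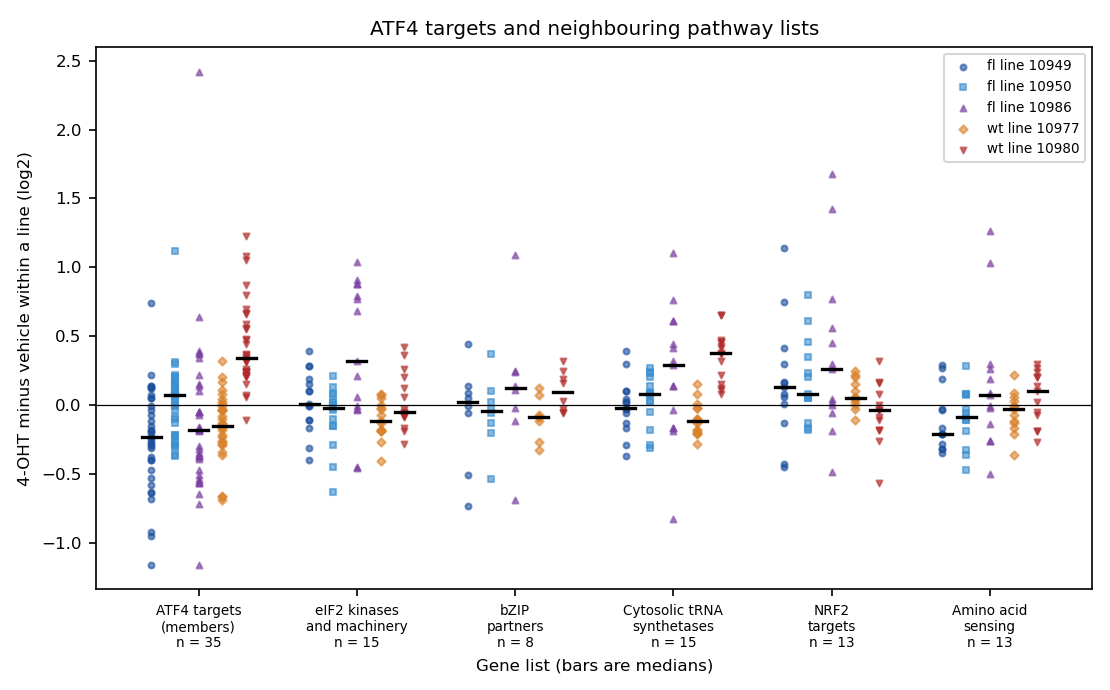
Change in log2 level from vehicle to 4-OHT for each measured gene of the ATF4 target list and of the 5 neighbouring lists, 1 column of points per line and a bar at the median. In wt line 10980 the medians of the ATF4 targets and tRNA synthetases are 0.34 and 0.38. In fl line 10986 the medians of the eIF2 list, the tRNA synthetases and the NRF2 targets are 0.32, 0.29 and 0.26.

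Markers of the sorted cells and of cell types that the sort could hold were read on the same arrays. The log2 of the summed intensity of 8 measured monocyte and macrophage markers (of 10 listed) was 12.34 to 13.09 on fl vehicle and 13.05 to 13.83 on fl 4-OHT arrays, and Ctss and Irf8 rose (limma adjusted p = 0.046 and 0.0373). The other markers of this list did not pass. In all, 7 of the 8 were higher with 4-OHT in every fl line, and Ccr2 was mixed (-0.61, -0.47 and 0.59). In the wt lines the sum was 13.15 to 13.35 with vehicle and 12.79 to 13.58 with 4-OHT. By line, 7 of these 8 markers were higher with 4-OHT in wt line 10977 (median 0.26) and 2 in line 10980 (median -0.46). For 7 late neutrophil markers the sum was 11.19 to 12.20 on fl vehicle and 12.04 to 12.82 on fl 4-OHT arrays, with Mmp8 rising (adjusted p = 0.0143), and 12.34 to 13.58 and 11.63 to 13.79 on the wt arrays. Cxcr2 and S100a8 did not pass but were also higher with 4-OHT in every fl line. The fl changes of Ltf, Camp, Ngp and S100a9 differed in sign between lines (means 0.08, -0.02, 0.32 and 0.11). Of the 7 late neutrophil markers, 6 were higher with 4-OHT in wt line 10977 (median 0.19) and 0 in line 10980 (median -0.41). The 6 progenitor markers, Kit and Mpo among them, summed to 13.93 to 14.06 and 14.14 to 14.19 on the fl arrays and to 14.41 to 14.55 on the wt arrays. Of the 6, only Mpo had fl levels below both wt levels of the same treatment. Its fl minus wt difference was -1.18 under vehicle and -1.37 under 4-OHT (limma adjusted p = 0.343 and 0.0979). The levels of the other progenitor markers overlapped between genotypes under both treatments. The 3 marker calls were lost with all probe sets tested, with only the fl arrays in the fit, and without line 10949, 10950, 10977 or 10980, settings under which limma called 0 genes higher in the fl lines. With arrays centred on their medians limma called 1 gene higher, so at most 1 of the 3 marker calls could hold. Without the level filter it called 3 genes higher, against 8 in the main fit, and whether these included the markers was not listed. Mast cell and basophil markers (5 of 5 measured) ranged from 9.73 to 11.28 over all arrays and erythroid markers (3 of 5) from 9.97 to 11.29. Among the former, Cpa3 was higher with 4-OHT in all 3 fl lines (1.38, 0.98 and 0.29, limma adjusted p = 0.143), and 2 were lower in all 3. The erythroid sum was mostly Tfrc (mean level 10.70), with Klf1 at 7.18 and Gata1 at 6.75. Lymphoid markers (4 of 5) stayed between 8.27 and 8.49, with 2 of the 4 below the level filter. The part of these markers in the members' values was not tested, and in these sorted populations fewer cells of a type and less RNA per cell cannot be told apart.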

How the data were processed

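RNA of each line and treatment was hybridised to a 1-colour array. The authors made the deposited intensity values, 1 per probe set and array on a linear scale, with RMA, per the submitters' processing notes, which corrects background, equalises the arrays' probe distributions and summarises probes. Its software was not given in the sources used here. Arrays have no read depth, so the number of arrays limits precision (median SE 0.12 for fl and 0.14 for wt changes). Of 35556 probe sets, 21789 had 1 symbol in the platform annotation, 1621 several, and 12146 were not listed. Values were log2-transformed, and genes with a mean at or above 6.23, the 25th percentile of probe sets, were tested (15662 genes, all 35 measured members among them).

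Changes were tested with limma 3.58.1 (R 4.3.3) on all 10 arrays with the line as a fixed block, separate 4-OHT terms for fl and wt, two-sided moderated tests and p-values adjusted by Benjamini-Hochberg across the genes tested, with 3 residual and 6.69 total degrees of freedom. The spread of each gene was estimated from fl and wt lines together. The wt lines, line 10980 included, thus entered the standard errors and p-values of the fl changes. For genotypes, 4 group means were fitted, and the line entered as a random effect (statmod 1.5.0, correlation 0.165). The series design pairs a line's cultures, and deviations from group means correlated within a line at 0.78, 0.22, -0.06, 0.43 and 0.43 (lines 10949, 10950, 10986, 10977 and 10980). The sources used here do not say whether a pair shared a day. The fit was tested on simulated data.

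The members and lists were chosen with earlier results of these data known. By rule, Atf4 and the 12 other members with the largest fl change in 1 direction in all 3 fl lines were given array by array, and the 2 genes with the largest fl change of each role group and further list were named. Other names, and array values for some of these, were chosen after the values were seen. Alternatives varied block, filter, gene representation, scale, variance prior, array weights, pseudocount and arrays used.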

Additional observations from a re-analysis of the deposited data

How the results depend on the processing

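Array weights changed the calls most. With them 2 members passed as higher (Slc7a11 and Slc38a1) and 13 as lower in the fl lines, 1 (Chac1) as lower for the difference between fl and wt changes, 4 as higher and 13 as lower between genotypes under vehicle, and 1 as higher and 10 as lower under 4-OHT. Over all genes that setting called 1698 higher and 2209 lower in the fl lines. Its estimation stopped before convergence. In the fit with the line as a block, which gave the calls for the fl lines and for the difference of changes, the arrays of line 10949 had a weight of 5.71. Those of lines 10950 and 10986 had 0.66 and 0.16, and the wt arrays 1.28. In the group-mean fit, which gave the calls between genotypes, the fl vehicle array of line 10950 had a weight of 116.50, against 0.13 to 3.03 for the other arrays. The cause of these calls was not tested. Leaving out 1 line at a time gave 0 to 1 members higher in the fl lines, the 1 being Slc7a11 without line 10986, where 144 genes rose and 296 fell in all. It moved the median difference under 4-OHT between -0.47 (without line 10977) and -0.10 (without line 10980), the median wt change between -0.15 and 0.34, the median difference of changes between -0.57 and 0.02 and the median fl change between -0.28 and -0.08. Without the line as a block, the median fl change was -0.17 and no member passed in the fl lines, as with the block. Without line 10980 the differences of Nupr1, Trib3, Mthfd2, Aldh18a1, Gpt2, Cth, Slc7a1, Slc1a4, Slc6a9 and Slc38a2 changed sign. Without line 10986 the fl changes of Eif4ebp1, Psat1, Asns, Slc7a5 and Vldlr did. With 3 fl and 2 wt line pairs, the precision is limited to the standard errors given.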
